A study of Homo sapiens with 18 samples.

Results

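The comparison described here is between 2 guide RNAs in parental KNS-42 cells, an established line from a human glioma that had been made to express the Cas9 nuclease. Its members were the 6 libraries, of 18 in the series, whose labels name parental cells: 3 with guide 395, which targets the DDX3X gene, and 3 with a guide against AAVS1, the control, which lies within PPP1R12C on chromosome 19 and is often cut as a neutral site. Both groups carried Cas9, received lentiviral particles encoding their guide and were harvested on day 7 after transduction. The other 12 libraries came from the same cells with an added codon-optimised DDX3X (DDX3Xoe) or DDX3Y (DDX3Yoe) gene and the same 2 guides, 3 libraries for each line and guide. The labels name 1 guide against DDX3X, do not say that the cells were cloned, and do not say whether replicates were separate cultures, so the p-values reflect only how these samples spread, and part of that spread may be technical.

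DDX3X is a DEAD-box RNA helicase, an enzyme that uses ATP to unwind short RNA duplexes and that acts in the translation of messenger RNAs with structured leaders. It has also been placed in the signalling that follows the sensing of foreign nucleic acid, and the gene is mutated in several tumours, among them medulloblastoma. Glioma lines of this kind commonly keep the transcription factors and intermediate filaments of neural progenitors, such as SOX2, nestin and vimentin, together with some mesenchymal and contractile genes.

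The 6 parental libraries held 8.01 M to 13.2 M reads on genes (M, 1e6), with 17885 to 19816 genes having at least 1 read. All 8 glial markers examined had reads in the parental cells. Their summed normalised level was 48236 to 76496 with AAVS1 and 44500 to 47153 with guide 395. Some were uneven between the AAVS1 replicates, among them VIM (44149, 11361 and 18020), GFAP (6089, 6605 and 753) and FABP7 (248, 11.2 and 7.81). Of 23 leukocyte markers 12 were at 0 in all 6 libraries, and 4 of 13 endothelial markers were, while the other 11 and 9 had reads. Of 12 epithelial markers 11 had reads, with sums of 334 to 663 with AAVS1 and 285 to 509 with guide 395. Of 14 fibroblast markers 12 had reads, with sums of 4186 to 6702 and 2519 to 3976. Mitochondrially encoded transcripts took 11.3 to 16.5% of reads with AAVS1 and 7.78 to 11.1% with guide 395. Ribosomal protein genes took 4.93 to 7.46% and 3.44 to 4.3%. Neither share overlapped between the guides, and their part in the results below was not tested.

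Of 15228 genes tested, 271 were called between the guides, at an adjusted p under 0.05 in limma, which is 1.78% of the genes. Of these 149 were higher with guide 395 (0.978% of genes tested) and 122 were lower (0.801%). With the replicate number as a block, 677 genes were called (4.45%), 336 higher and 341 lower, and all 271 were among them. Fold changes are on the scale of log2(normalised value + 1), and the median over all genes was 0.02. The called genes had a median absolute log2 change of 1.57, and for 254 of the 271 it was 1 or more. Each of the 271 had no overlap between the 3 libraries of either guide, while 3132 of all genes tested had no overlap. A gene without overlap must move the same way in all 3 replicate pairs, so the pairs add nothing to this count. Of the called genes, 10 were under 10 normalised reads in every AAVS1 library and 14 in every library with guide 395. For 3 of the called genes no library outside the parental cells reached 10, the value used to choose genes for testing.

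DDX3X itself (ENSG00000215301, chromosome X at 41333284 to 41364472, plus strand of GRCh38) had 1780, 1923 and 1729 normalised reads in the 3 AAVS1 libraries and 861, 844 and 953 in the 3 libraries with guide 395. All libraries with the DDX3X guide lay below all control libraries. The log2 change was -1.03 ± 0.30 (standard error; limma adjusted p 0.08), and the gene missed the threshold, as it did with the replicate block (0.0578). It passed in DESeq2 (adjusted p 0.0265). It also passed in limma without both DDX3Xoe libraries numbered 1 (adjusted p 0.0123), whose DDX3X values run against their labels. Reads came from the 3' ends of transcripts, and a transcript with a small deletion at the guide's target is still counted.

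The count of called genes moved with single libraries, and it was 68, 91 and 62 without guide 395 replicate 1, 2 or 3, and 139, 60 and 366 without AAVS1 replicate 1, 2 or 3. A core of 34 genes was called in limma, under both forms of the replicate block, in edgeR, in DESeq2 and in each of the 6 fits without 1 library. The core held 19 genes that were higher and 15 that were lower with guide 395. None of the core was on the list of 49 tested interferon-stimulated genes, and 2 were on the MHC class I list. The interferon list is a chosen selection, so this count does not show that the core lacks interferon-responsive genes. The other 237 called genes lost their call in at least 1 of these fits, and where a number of leave-one-out fits out of 6 is given below it is the number in which the gene was still called. Another expressed gene overlapped the last 500 bases of 62 of 269 annotated called genes, among them ACTA2, TMOD1, BAALC, KCNMB3, CBARP, TAGLN, TAP1, IFIT2, VCL and PRDX1. Since the strand setting of the counting was not given in the sources used here, reads of such pairs may not be told apart.

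Among the core genes that were higher, DGKQ, which encodes diacylglycerol kinase theta and turns diacylglycerol into phosphatidic acid, had 158, 185 and 205 normalised reads with AAVS1 and 687, 584 and 821 with guide 395. Its log2 change was 1.92 ± 0.23 (standard error; limma adjusted p 0.000633). TOB2, an antiproliferative protein that also binds the deadenylase complex acting on messenger RNA tails, had 326, 256 and 467 reads with AAVS1 and 1180, 1408 and 1821 with guide 395. The change was 2.09 ± 0.27 (adjusted p 0.000866), and the lowest treated library held more than the highest control. MDK, the secreted heparin-binding growth factor midkine, had 289, 257 and 392 reads against 1538, 1537 and 1724. Its change of 2.37 ± 0.31 (adjusted p 0.000866) came with 3 treated libraries that lay close together.

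ZDHHC8BP, an unprocessed pseudogene on chromosome 22, had 73.2, 90.6 and 60.2 reads against 747, 928 and 857 (3.50 ± 0.41, limma adjusted p 0.000633). It shares sequence with ZDHHC8 and related copies, so its reads may be divided among them. HCP5, a transcript of the MHC region, had 70.5, 60.8 and 100 reads against 1144, 1010 and 1215 (3.87 ± 0.58, adjusted p 0.00301). TMEM62, a transmembrane protein, had 160, 139 and 223 reads against 1122, 855 and 871 (2.46 ± 0.33, adjusted p 0.00105). BAG1, a co-chaperone of HSP70 that binds BCL2, was not among the genes named by rule and was chosen after its values were seen. It had 1251, 2178 and 1174 reads with AAVS1 and 4627, 3988 and 5160 with guide 395 (1.63 ± 0.28, adjusted p 0.00893). Further core genes that were higher were PHF21B (2.14), TMCO4 (2.01), AP002807.1 (1.85), CBARP (1.68), ANKRD13D (1.57) and DUSP16 (1.44), with log2 changes in parentheses. ANKRD13D and AL512306.2 (3.88) were likewise chosen after their values were seen.

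Core genes that were lower were led by contractile and structural genes. ACTA2, smooth muscle alpha-actin, had 920, 1395 and 1005 reads with AAVS1 and 180, 243 and 188 with guide 395, a log2 change of -2.43 ± 0.27 (limma adjusted p 0.000633). TMOD1, which caps the pointed ends of actin filaments, had 500, 440 and 402 reads against 113, 78.7 and 96 (-2.22 ± 0.27, adjusted p 0.000633). ACTG2, smooth muscle gamma-actin, had 291, 362 and 418 reads against 31.6, 46.2 and 89.7 (-2.77 ± 0.35, adjusted p 0.000866). In each of the 3 genes the highest treated library was far under the lowest control library. COL1A1, the alpha-1 chain of type I collagen, had 342, 217 and 303 reads against 48.4, 48.2 and 59.4 (-2.43 ± 0.32, adjusted p 0.000924). ACO1 is the cytosolic aconitase that doubles as an iron-responsive RNA-binding protein. It had 245, 458 and 161 reads against 23.7, 33.4 and 41.7 (-2.99 ± 0.45, adjusted p 0.00314).

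The remaining core genes that were lower included neural ones. NES, the intermediate filament nestin of neural progenitors, had 599, 804 and 645 reads with AAVS1 and 151, 214 and 269 with guide 395 (-1.71 ± 0.26, limma adjusted p 0.00314). NTRK3, the receptor for neurotrophin-3, had 370, 439 and 354 reads against 136, 130 and 157 (-1.45 ± 0.22, adjusted p 0.00355). BAALC, a membrane-associated protein of neuroectoderm, had 509, 748 and 460 reads against 171, 163 and 116 (-1.91 ± 0.24, adjusted p 0.000866). DLX6-AS1, a long noncoding transcript of the DLX5 and DLX6 forebrain locus, had 2551, 3467 and 2135 reads against 869, 905 and 962 (-1.55 ± 0.24, adjusted p 0.0043). The 2 protein-coding genes of that locus, chosen after their values were seen, did not pass, with DLX6 at -0.86 (adjusted p 0.16) and DLX5 at -0.90 (0.25). The other core genes that were lower, with their log2 changes, were JAKMIP2-AS1 (-3.55), C5orf46 (-2.27), ANAPC15 (-2.02), a subunit of the anaphase-promoting complex, CCDC167 (-1.77), PTRHD1 (-1.73) and LINC00511 (-1.25).

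**Figure D1:**
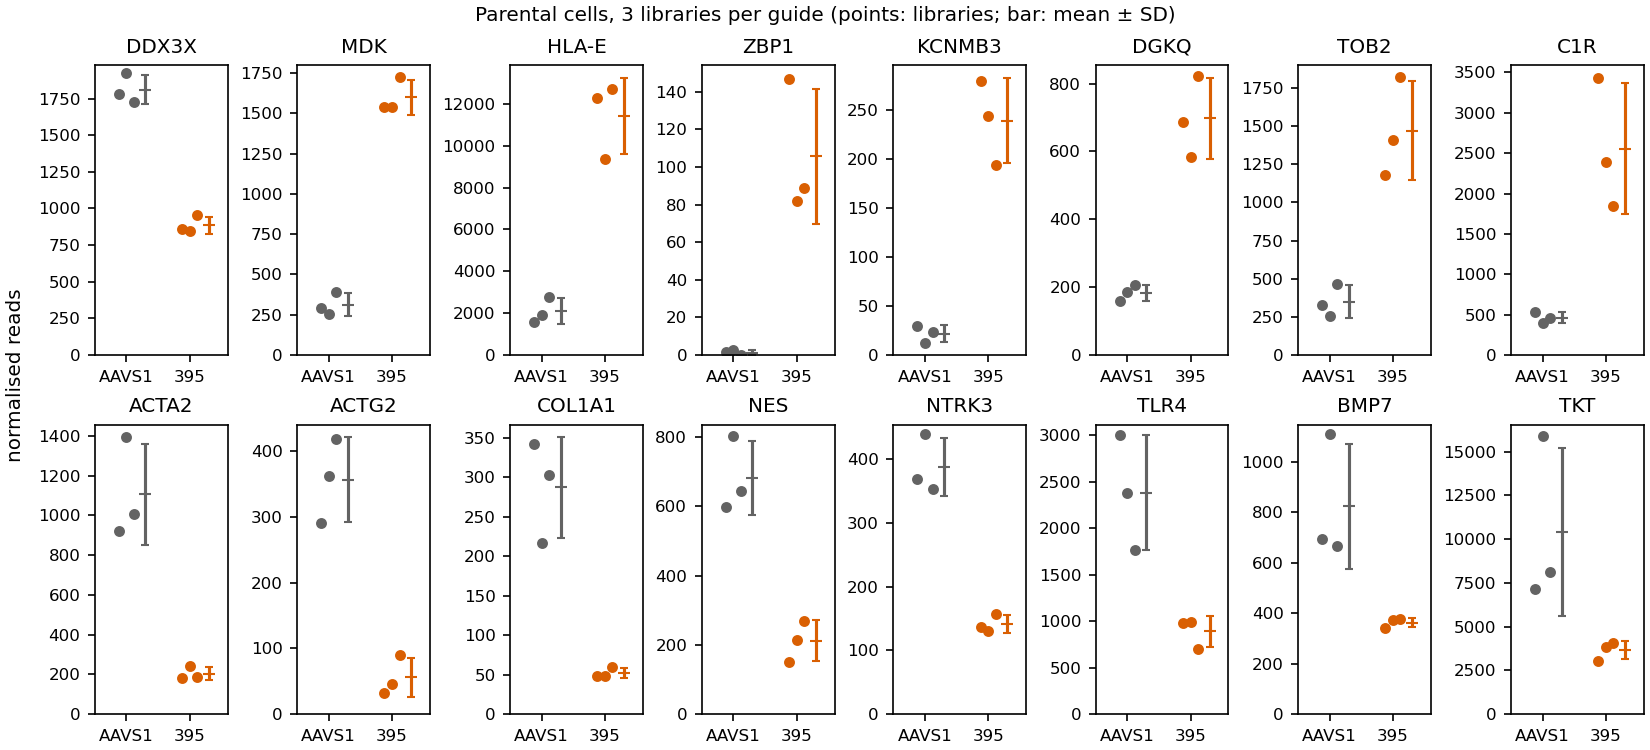
Normalised reads of 16 genes in the 6 parental libraries, with a linear y axis from 0 for each gene, points for libraries and a bar for the mean ± SD of 3. The libraries of the 2 guides do not overlap for any gene shown, and TKT has 1 control library, at 15911, well above the other controls.

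Transcription factors were examined through 16 lists with 753 tested genes, of which 13 were higher and 1 was lower. That is 1.86% called, next to 1.78% of all genes, and with the block 30 were higher and 4 lower, 4.52% next to 4.45%. The median log2 change over the 753 was 0.32, against 0.02 over all genes. Most of the called members were on the list of ZNF-named zinc finger genes. Of 435 tested ZNF genes 10 were higher and 1 was lower (15 and 2 with the block), 329 lay above 0, and the list's median of 0.34 was 0.34, 0.46 and 0.32 in the 3 replicate pairs. ZNF628, the largest of these, had 65.1, 36 and 60.2 reads with AAVS1 and 280, 166 and 315 with guide 395 (2.21 ± 0.41, limma adjusted p 0.0113). It lies on chromosome 19 between the control guide's site and the long-arm end, as does ZNF274, a stretch described further on. How many other ZNF genes of the list lie there was not counted. ZNF131 (1.10), ZNF554 (1.72), ZNF275 (1.11) and ZNF688 (1.25) were also higher, as were ZNF274, ZNF768, ZNF862, ZNF267 and ZNF777, and ZNF385D was lower at -1.74. The last 6 were chosen after their values were seen.

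Outside the ZNF list 3 listed transcription factors were called, all of them higher. KLF6, a zinc finger factor induced by injury and growth signals, had 1309, 827 and 1341 reads with AAVS1 and 2369, 1838 and 2297 with guide 395 (0.93 ± 0.21, limma adjusted p 0.0344, 2 of 6 leave-one-out fits). ELF4, an ETS factor, had 234, 190 and 242 reads against 462, 412 and 609 (1.14 ± 0.25, adjusted p 0.0314, 1 of 6). IRF7, the interferon regulatory factor that drives type I interferon genes, had 690, 454 and 1437 reads against 4289, 2802 and 3742 (2.21 ± 0.48, adjusted p 0.027, 1 of 6). No member was called in the lists of NF-kB subunits and inhibitors, AP-1, SOX, HOX, forebrain patterning, bHLH, mesenchymal transition, SRF partner, TEAD and SMAD, E2F and MYB, nuclear receptor, FOX and ZBTB factors. With the block 8 of the 275 genes on these lists were higher and 2 lower.

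Several uncalled factors crossed the threshold with the replicate block. STAT5A was at 1.48 with an adjusted p of 0.052, and 0.012 with the block. NFKBIZ, an atypical NF-kB cofactor, was at 1.46 with 0.078 and 0.036, and TNIP2, an NF-kB inhibitor, at 0.80 with 0.072 and 0.043. ETV6 was at 0.89 (0.066 and 0.04), KLF11 at 1.52 (0.069 and 0.043), ZBTB7A at 0.90 (0.052 and 0.029) and ELK4, which partners the serum response factor SRF, at 1.73 (0.056 and 0.03). SP9, a forebrain interneuron factor, was at -1.38 (0.06 and 0.02) and POU3F3, a neural POU factor, at -0.85 (0.086 and 0.018). SOX2 had a mean of 19173 reads with AAVS1 and 12602 with guide 395 (-0.61, adjusted p 0.38), and SOX9 had 1189 and 1834 (0.59, 0.36). Neither passed with or without the block.

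Further called regulators stood on none of the factor lists and were chosen after their values were seen. CEBPA (1.82) and CEBPD (1.12), 2 C/EBP factors of inflammatory and acute-phase genes, were higher. CEBPD had 922, 525 and 897 reads with AAVS1 and 2330, 1219 and 1573 with guide 395 (limma adjusted p 0.0374). CREBZF (1.57), DMRTA2 (1.39) and the CREB coactivator CRTC3 (1.44) were higher as well. Chromatin regulators in this group were EP300, a histone acetyltransferase (1.32), TASOR of the HUSH silencing complex (1.22), MSL1 (1.06) and JADE2 (2.02). LMO3, a LIM-only cofactor of neural cells, was lower with 722, 685 and 474 reads against 259, 320 and 315 (-1.05, 0.0442).

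Surface proteins were examined through 15 lists with 686 tested genes, of which 13 were higher and 9 lower, 3.21% of the genes against 1.78% of all genes. With the block 19 were higher and 26 lower, 6.56% against 4.45%, so that most calls were then lower. Of the 13 that were higher, 6 belonged to the 22 tested genes of MHC class I and its assembly, whose median was 1.43. HLA-E, a class I molecule read by natural killer cell receptors, had 1566, 1912 and 2773 reads with AAVS1 and 12278, 9357 and 12695 with guide 395 (2.48 ± 0.40, limma adjusted p 0.00479, in the core). HLA-B (2.89), HLA-F (2.33) and the peptide transporter genes TAP1 (2.07) and TAP2 (2.23) were also higher. B2M, the shared light chain, had a mean of 27738 and 84810 reads (1.61) and did not pass (adjusted p 0.098), nor did HLA-C (1.46, 0.086). The last 2 were chosen after their values were seen, and reads of class I genes can be shared among their close paralogs.

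The immune ligands that were called were HLA-E and CD274. CD274, which encodes the checkpoint ligand PD-L1, had 15.4, 8.68 and 29 reads with AAVS1 and 178, 65.9 and 116 with guide 395 (2.73 ± 0.60, limma adjusted p 0.0285, 2 of 6). MICB, a stress ligand of the NKG2D receptor, was at 1.45 with an adjusted p of 0.062, and 0.032 with the block. With the block 5 of the 20 checkpoint and natural killer or T cell ligands were higher, against 2 without it, while the calls over all genes rose from 271 to 677.

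Growth factor and pattern receptors that were called were lower. NTRK2, the receptor for brain-derived neurotrophic factor, had 2293, 1472 and 1599 reads with AAVS1 and 861, 1030 and 849 with guide 395 (-0.95 ± 0.22, limma adjusted p 0.0362, 1 of 6). NTRK2 and NTRK3 were the 2 called genes of 23 receptor tyrosine kinases tested (8.7%, against 1.78% of all genes). With the block 4 were lower, where 4.45% of all genes were called. TLR4, the receptor for bacterial lipopolysaccharide, had 2999, 2375 and 1766 reads against 985, 991 and 700 (-1.40 ± 0.25, adjusted p 0.0107, 5 of 6). IL6R, the interleukin-6 receptor, had 59.1, 83.1 and 78.1 reads against 10.5, 34.4 and 17.7 (-1.90 ± 0.41, adjusted p 0.027). TYRO3, a receptor of the AXL family, was at -1.02 and passed with the block alone (adjusted p 0.24 and 0.023).

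Of 40 potassium channels 1 was higher and 1 lower, and of 79 other ion channels and neurotransmitter receptors 2 were higher and 2 lower (2 and 3, and 3 and 5, with the block). KCNMB3, a beta subunit of the large-conductance calcium-activated potassium channel, had 29.5, 12.4 and 23.4 reads with AAVS1 and 280, 244 and 194 with guide 395 (3.46 ± 0.47, limma adjusted p 0.00105, in the core). KCNN3, a small-conductance calcium-activated potassium channel, had 188, 251 and 113 reads against 44.8, 38.4 and 36.5 (-2.11 ± 0.49, adjusted p 0.0383, 1 of 6). GRM5, a metabotropic glutamate receptor (2.99), and CHRNB2, a nicotinic receptor subunit (2.20), were higher. GRM5 had 7.39, 1.24 and 4.46 reads against 38.7, 31.5 and 38.6. P2RX6, a purinergic receptor subunit (-1.87), was lower. ANO4, of the anoctamin family, had 13.4, 11.2 and 13.4 reads against 0 in all 3 libraries with guide 395, and since a library at 0 can still hide up to 3 reads, no fold is given. Of 223 solute carriers 4 were called, 1.79%, next to 1.78% of all genes. SLC25A36 (1.46) and SLC25A28 (1.67), a mitochondrial iron importer, were higher, and SLC25A6 (-1.43), a mitochondrial ADP/ATP carrier, and SLC22A17 (-1.29) were lower. ABCA1, which exports cholesterol, had 277, 153 and 185 reads against 394, 469 and 568 (1.24, 0.021). No member was called among integrins, cadherins, other adhesion molecules, Eph receptors and ephrins, semaphorins and plexins, adhesion and orphan G protein-coupled receptors, or tetraspanins and claudins. With the block 1 of the 206 genes on these lists was higher, an integrin, and 5 were lower.

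Secreted proteins were examined through 11 lists with 248 tested genes, of which 5 were higher and 8 lower, 5.24% of the genes against 1.78% of all genes. With the block 12 were higher and 14 lower, 10.5% against 4.45%. Those that were higher were led by MDK, described above, and by complement genes. C1R, the protease of the first complement component, had 534, 391 and 463 reads with AAVS1 and 3437, 2395 and 1841 with guide 395 (2.43 ± 0.39, limma adjusted p 0.00459, in the core). SERPING1, the inhibitor of that protease, had 184, 192 and 216 reads against 1480, 1144 and 1413 (2.76 ± 0.56, adjusted p 0.0191, 1 of 6). The protease gene and the gene of its inhibitor were thus both higher. CXCL16, a transmembrane chemokine, had 185, 212 and 302 reads against 755, 536 and 977 (1.68 ± 0.37, adjusted p 0.0276, 2 of 6). CCL5 (3.66) and TNFSF10, the death ligand TRAIL (2.31), passed with the block alone (adjusted p 0.065 and 0.063 without it, 0.028 and 0.044 with it).

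The 2 tissue factor pathway inhibitors moved in opposite directions. TFPI had 650, 301 and 388 reads with AAVS1 and 152, 113 and 175 with guide 395 (-1.55 ± 0.30, limma adjusted p 0.0145, 4 of 6). TFPI2 had 712, 626 and 1463 reads against 2009, 2158 and 2249 (1.3 ± 0.31, adjusted p 0.0412, 1 of 6), and it missed the threshold in edgeR (0.068).

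Apart from TFPI, the secreted genes that were lower encoded growth factors, morphogens and matrix proteins or their regulators. BMP7, a bone morphogenetic protein, had 696, 1110 and 667 reads with AAVS1 and 341, 374 and 375 with guide 395 (-1.14 ± 0.23, limma adjusted p 0.0201, 2 of 6). SFRP2, a secreted Wnt antagonist, had 806, 388 and 281 reads against 100, 127 and 85.5 (-2.10 ± 0.52, adjusted p 0.0462, 1 of 6). PDGFC, a platelet-derived growth factor, had 301, 517 and 461 reads against 149, 179 and 194 (-1.26, 0.0462). FGF1, a fibroblast growth factor, had 28.9, 54.6 and 23.4 reads against 8.79, 5.9 and 7.3 (-2.06, 0.0462). TIMP2, an inhibitor of matrix metalloproteases and one of the more abundant transcripts here, had 14982, 22970 and 14286 reads against 8883, 6751 and 8001 (-1.12, 0.0462). COL5A2, a fibrillar collagen that assembles with type I, had 1366, 801 and 899 reads against 585, 376 and 475 (-1.08, 0.0445, 0 of 6). Of 24 collagens these 2, COL1A1 and COL5A2, were lower and none was higher, while COL1A2, the partner chain of COL1A1, was at 10 and 44.1 reads on average (1.90, 0.19). KAZALD1, a secreted IGF-binding-like protein (1.71), and NELL2, a secreted neural glycoprotein (-2.49), were called outside the lists and chosen after their values were seen.

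Pathway lists, 34 in number with 1163 tested genes, held 23 genes that were higher and 16 that were lower, 3.35% of the genes against 1.78% of all genes, and 42 and 29 with the block (6.1% against 4.45%). Of 52 tested actin cytoskeleton and contractile genes, 6 were lower and 0 higher, with a median of -0.53 and 45 of 52 below 0, and with the block 10 were lower. Besides ACTA2, TMOD1 and ACTG2 these were TAGLN, DSTN and VCL. TAGLN, an actin-binding protein of smooth muscle, had 796, 706 and 1098 reads with AAVS1 and 209, 242 and 414 with guide 395 (-1.62 ± 0.34, limma adjusted p 0.0232, 1 of 6). VCL, the focal adhesion protein vinculin, had 2962, 3329 and 3005 reads against 1322, 1295 and 1916 (-1.06, 0.0331). CNN1, smooth muscle calponin, was at -2.26 and passed with the block alone (0.052 and 0.0046). FSCN1 (-0.98), PLS3 (-0.86) and MYO10 (-0.83), which bundle actin or act in filopodia, are on no list and were picked from the genes called lower, so they add nothing to the count for the list.

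The lists of pericyte and smooth muscle markers and of TGF-beta response genes overlap with these. In 12 tested entries of the first the median was -1.12, and ACTA2 and TAGLN were the 2 lower members. The summed level of its 17 entries was 2361 to 2776 with AAVS1 and 732 to 923 with guide 395. ACTA2 and TAGLN made up most of that sum. The other 15 entries summed to 645, 345 and 673 with AAVS1 and to 427, 247 and 321 with guide 395, and these overlapped. Its defining genes MYH11 and DES had at most 6.20 and 11.4 reads in any library, and HIGD1B was at 0 in all 6. Of the 21 tested TGF-beta response genes, ACTA2, COL1A1 and TAGLN were lower (14.29%, against 1.78% of all genes). The list's median was 0.22, however, and 14 of 21 lay above 0. In bulk samples fewer cells of a kind and less RNA per cell cannot be told apart.

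Of 35 NRF2 and antioxidant genes, 5 were lower and 0 were higher (14.29% called, against 1.78% of all genes). With the block 5 were lower and 1 was higher. The median was -0.52, and 30 of the 35 lay below 0, next to 7445 of all 15228 genes tested. AKR1C3 and AKR1C2 are aldo-keto reductases. AKR1C3 had 620, 578 and 404 reads with AAVS1 and 248, 198 and 154 with guide 395 (-1.41 ± 0.26, limma adjusted p 0.0118, 4 of 6), and AKR1C2 had 330, 342 and 361 against 70.3, 131 and 196 (-1.49 ± 0.31, 0.0205, 3 of 6). The AKR1C genes are near-identical and may share reads. PRDX1, a peroxiredoxin, had 12956, 26334 and 10205 reads against 6976, 5867 and 5790 (-1.29, 0.0374, 1 of 6). TKT and TALDO1 catalyse the non-oxidative steps of the pentose phosphate pathway. TKT had 7147, 15911 and 8123 reads against 3062, 3851 and 4071 (-1.42, 0.0434), and TALDO1 had 1243, 1409 and 1009 against 753, 639 and 625 (-0.85, 0.0385). NQO1, a classical NRF2 target chosen after its values were seen, had 1372 and 1262 reads on average (-0.08, 0.94). GSS, glutathione synthetase (-1.23, 0.0227), was called lower outside the list and was chosen in the same way.

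Genes of nucleic acid sensing and regulated cell death included ZBP1, the sensor of Z-form nucleic acid that can trigger necroptosis. ZBP1 had 2, 2 and 0 recovered reads in the AAVS1 libraries and 167, 83 and 85 in those with guide 395, or 4 against 335 in all. Per recovered read on genes the ratio was 92.4, with an exact 95% interval of 35.7 to 341 that covers counting error only. Its fitted log2 change was 5.68 ± 0.84 (limma adjusted p 0.00273, in the core) and depends on the pseudocount. The change was 4.11 (0.000105) with a pseudocount of 5 and 7.15 with 0.1, where it missed the threshold (0.0609). In DDX3Yoe cells ZBP1 had at most 9.77 normalised reads in any library. Within parental and DDX3Yoe cells it thus reached the filter value of 10 only in the group where it is high. RIPK1, a kinase that acts with RIPK3 and caspase-8 in death signalling, had 502, 190 and 435 reads against 913, 717 and 852 (1.25, 0.0377, 2 of 6). These were the 2 called of 42 apoptosis and pyroptosis genes (4.76%, against 1.78% of all genes). With the block 4 were higher, where 4.45% of all genes were called. Of 22 sensors and adaptors ZBP1 alone was called (4.55%), with a list median of 1.03.

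The interferon-stimulated genes had a median of 1.64, with 48 of 49 tested above 0. Of the 49, 6 were called higher (12.24%, against 1.78% of all genes), and 12 with the block, where 4.45% of all genes were called. The medians in replicate pairs 1, 2 and 3 were 2.12, 1.97 and 1.00. ISG20, an exonuclease, had 36.9, 32.3 and 244 reads with AAVS1 and 1585, 761 and 1684 with guide 395 (4.23 ± 0.82, limma adjusted p 0.0154, 2 of 6). AAVS1 replicate 3 lay above the other 2 controls for this gene and for IFIT2, which had 1342, 976 and 4006 reads against 15661, 13057 and 20616 (3.22 ± 0.64, 0.0174, 2 of 6). CMPK2 (4.81) and IFI27 (3.30) rested on 1 of 6 leave-one-out fits each, and CMPK2 missed the threshold with a pseudocount of 0.1 (adjusted p 0.123).

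Of 47 nucleotide synthesis and salvage genes 3 were higher (6.38%, against 1.78% of all genes), though the list's median was -0.25. TYMP, thymidine phosphorylase, had 18.1, 23.6 and 54.7 reads with AAVS1 and 240, 261 and 248 with guide 395 (3.08 ± 0.70, limma adjusted p 0.032). NT5C3A, a pyrimidine nucleotidase (2.25), and GMPR, which converts GMP to IMP (2.67), were the others. NT5C3A missed the threshold in edgeR (0.059). PTGS2, the inducible cyclooxygenase, had 383, 278 and 493 reads against 1184, 1149 and 1740 (1.83 ± 0.34, 0.0113, 4 of 6). MT2A, a metallothionein, had 15818, 14208 and 19047 reads against 55299, 29220 and 48879 (1.40 ± 0.31, 0.0317, 2 of 6). SAT1, which acetylates spermidine and spermine, had 5194, 4045 and 5021 reads against 2488, 1988 and 1947 (-1.15, 0.0261). CTSS, the lysosomal cathepsin S, was higher at 2.25 (0.032).

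Regulators of Wnt and MAPK signalling were called as well. DVL3 and DVL1 encode Dishevelled proteins, which relay Wnt signals from Frizzled receptors. DVL3 had 1437, 1539 and 1418 reads with AAVS1 and 3873, 2552 and 3329 with guide 395 (1.13 ± 0.21, limma adjusted p 0.0113, 4 of 6), and DVL1 had 147, 208 and 197 against 438, 373 and 484 (1.23 ± 0.23, 0.0118, 4 of 6). They were the only called genes of the 28 tested on the Wnt signalling list (7.14%, against 1.78% of all genes). The list's median was -0.13. DUSP16, a phosphatase of the kinases JNK and p38, had 161, 192 and 234 reads against 561, 504 and 516 (1.44 ± 0.26, 0.0105, in the core). MAP2K4, a kinase upstream of JNK and p38, was higher at 0.88 (0.0276), and JAK2, the receptor-coupled tyrosine kinase, had 142, 217 and 234 reads against 739, 602 and 544 (1.69 ± 0.33, 0.0173, 1 of 6). SOCS5, of a family of cytokine signalling suppressors, was higher at 1.24 (0.0453). The last 3 were chosen after their values were seen.

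Single calls also came from PARP6 (1.58, limma adjusted p 0.0137), a mono-ADP-ribosyltransferase, TRIM8 (1.14, 0.0445), a RING ubiquitin ligase, the histone gene H2BC21 (1.70, 0.0412), the regulator of G protein signalling RGS8 (-2.29, 0.0462) and the helicase DHX40 (-0.73, 0.0434). DHX40 was the only called gene of 52 tested DEAD-box and DEAH-box helicases (1.92%, next to 1.78% of all genes). No gene was called on the lists for p53 targets, YAP and TEAD targets, Notch, Hedgehog and primary cilium, ATF4 and amino acid response, unfolded protein response, heat shock chaperones, glycolysis and hypoxia, autophagy, polycomb, trithorax and DNA methylation, DNA damage response, splicing factors or senescence-associated secreted genes. With the block 4 of the 454 genes on these lists were higher and 5 lower. PHGDH, the first enzyme of serine synthesis, was at -1.46 and passed with the block alone (0.16 and 0.032). The ATF4 list had medians of 0.54, 0.26 and -1.28 in pairs 1, 2 and 3, so the pairs disagreed in sign. The unfolded protein response list did too, with 0.72, 0.39 and -0.73.

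Identity lists held 98 tested genes, of which 0 were higher and 6 lower, 6.12% of the genes against 1.78% of all genes, and with the block 1 was higher and 11 lower (12.2% against 4.45%). ACTA2, TAGLN and COL1A1, 3 of the 6, are the contractile and collagen genes already counted above. Among 23 astrocyte and radial glia markers NES alone was called, with a median of -0.34, and SLC1A3, a glial glutamate transporter, was at -1.79 and passed with the block alone (adjusted p 0.2 and 0.036). The median was -0.74, -0.66 and -0.04 in the 3 pairs. Among 38 synaptic and neuronal genes SUSD4, a complement inhibitor of neural tissue, had 148, 260 and 193 reads with AAVS1 and 30.8, 38.4 and 67.8 with guide 395 (-2.15 ± 0.38, limma adjusted p 0.0105, 4 of 6). PLPPR4 (-2.13, 0.0377) was the other lower member, and with the block 5 were lower and 1 higher. The list's median was -0.13, with 17 of its 38 genes above 0. GAP43, a growth cone protein, had means of 2962 and 1483 reads, with an adjusted p of 0.052 and 0.034 with the block. BASP1 (-1.32) and GPM6A (-1.29), membrane proteins of neurites, the teneurin TENM2 (-1.35), PCSK1N (-1.45) and CALB2, the calcium-binding protein calretinin (-2.01), were picked from the genes called lower, so their shared direction is set by that choice. MIAT, a long noncoding transcript, had 2154, 1398 and 972 reads against 347, 467 and 175 (-2.22 ± 0.39, 0.00932, 5 of 6).

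Promoter sequences of RefSeq (GRCh38.p14) were available for 193 of the 271 called genes and 10986 of those tested, and the 250 bases before each start were searched on both strands. The interferon-stimulated response element, searched as GAAANNGAAA, was in a window of 10 of 105 genes called higher (9.52%), of 3 of 88 called lower (3.41%) and of 3.4% of the genes tested. It was present in 3.02% of all 35116 windows. Of genes called higher outside the interferon and MHC lists, 5 of 98 (5.1%) had it: CD274, KCNMB3, NGLY1, RIPK1 and RTP4. The CArG box bound by SRF was in 5 of 88 genes called lower (5.68%), in 1 of 105 called higher (0.952%) and in 1.59% of the genes tested. The 5 were ACTG2, FILIP1, FLG, LMO3 and NTRK2. The NF-kB consensus was in 17.1% of genes called higher, 15.9% of those called lower and 15.8% of those tested, and the gamma-activated sequence TTCNNNGAA in 7.62, 7.95 and 7.7%. A match is a description of the letters in the window.

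The 5 windows below are shown because they hold the 2 elements in genes whose values are given above, with the matched bases in capitals and each window ending at the base before the start. In CD274 (chr9:5450292-5450541, plus strand) and TAP1 (chr6:32853705-32853954, minus strand) the capitals are 2 overlapping matches to GAAANNGAAA read on the other strand. ISG20 (chr15:88638766-88639015, plus strand) and RIPK1 (chr6:3068128-3068377, plus strand) have 1 match each, and ACTG2 (chr2:73892758-73893007, plus strand) has 2 CArG boxes.
CD274: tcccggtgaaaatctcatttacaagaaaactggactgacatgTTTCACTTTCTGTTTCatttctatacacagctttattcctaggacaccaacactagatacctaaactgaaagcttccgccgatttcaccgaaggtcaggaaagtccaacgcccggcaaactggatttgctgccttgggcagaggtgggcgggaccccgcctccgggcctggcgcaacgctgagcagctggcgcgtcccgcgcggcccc
TAP1: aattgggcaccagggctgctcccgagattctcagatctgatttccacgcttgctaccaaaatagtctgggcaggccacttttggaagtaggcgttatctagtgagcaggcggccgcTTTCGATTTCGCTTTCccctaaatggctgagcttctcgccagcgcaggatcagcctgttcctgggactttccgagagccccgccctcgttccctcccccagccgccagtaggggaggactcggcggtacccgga
ISG20: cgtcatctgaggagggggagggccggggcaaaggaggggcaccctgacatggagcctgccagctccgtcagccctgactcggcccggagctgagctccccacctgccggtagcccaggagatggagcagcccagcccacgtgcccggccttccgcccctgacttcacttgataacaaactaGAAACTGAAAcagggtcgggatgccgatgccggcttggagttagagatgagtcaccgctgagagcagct
RIPK1: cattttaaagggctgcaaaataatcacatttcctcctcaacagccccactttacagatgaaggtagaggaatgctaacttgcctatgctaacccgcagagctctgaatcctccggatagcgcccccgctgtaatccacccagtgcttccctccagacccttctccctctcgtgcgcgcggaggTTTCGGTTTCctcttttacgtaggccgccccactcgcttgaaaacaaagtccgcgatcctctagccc
ACTG2: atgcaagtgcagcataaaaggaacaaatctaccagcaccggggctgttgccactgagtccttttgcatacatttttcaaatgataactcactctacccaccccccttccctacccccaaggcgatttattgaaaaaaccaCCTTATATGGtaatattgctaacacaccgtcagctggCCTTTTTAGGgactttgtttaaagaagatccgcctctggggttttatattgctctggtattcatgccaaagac

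Genes were also grouped by side of the 2 targeted sites. On chromosome X, 96 genes tested lay between the short-arm end and DDX3X, and 6 of these were lower and 0 higher, with a median log2 change of -0.37. The replicate pairs gave -0.35, -0.25 and -0.27, and 69 of the 96 lay below 0. With the block 12 were lower and 1 higher, 13.5% against 4.45% of all genes. The 6 were NHS (-1.54), PIR (-1.54), SLC25A6 (-1.43), PCYT1B (-1.25), SAT1 (-1.15) and AP1S2, which had 2111 and 1020 reads on average. Beyond DDX3X the 386 tested X genes had a median of -0.13, with 4 higher and 7 lower. PIR encodes an iron-binding nuclear protein, and NHS, an actin-regulating protein, had 387, 337 and 253 reads with AAVS1 and 105, 104 and 119 with guide 395 (limma adjusted p 0.0113, 5 of 6).

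On chromosome 19 the 110 tested genes between PPP1R12C, the site of the control guide, and the long-arm end had a median of 0.50, with 0.60, 0.38 and 0.46 in the pairs, and 83 of 110 above 0. ZNF628 and ZNF274 were higher and none was lower, 2 of 110 where 1.78% of all genes were called. With the block 5 were higher, 4.55% against 4.45% of all genes, so calls there were near the share over all genes. The 970 genes before PPP1R12C had a median of 0.06. ZNF628 and ZNF274 are also on the ZNF list, whose median over all its 435 tested genes was 0.34. That list was not split by position. How far the stretch and that list share their shift was not tested. The same regions in DDX3Yoe cells, with control libraries of their own, had medians of -0.20 on X before DDX3X and 0.30 on chromosome 19 from PPP1R12C. A difference between the guides cannot be assigned to either guide alone, since no library without a guide was analysed here. Of 300 processed pseudogenes tested, 7 were lower and 0 higher, with a median of -0.53. With the block 19 were lower, 6.33% against 4.45% of all genes. RPL3P4 (-1.80) and RPS3AP47 (-1.79) were among them, copies of ribosomal protein genes with which they can share reads.

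**Figure D2:**
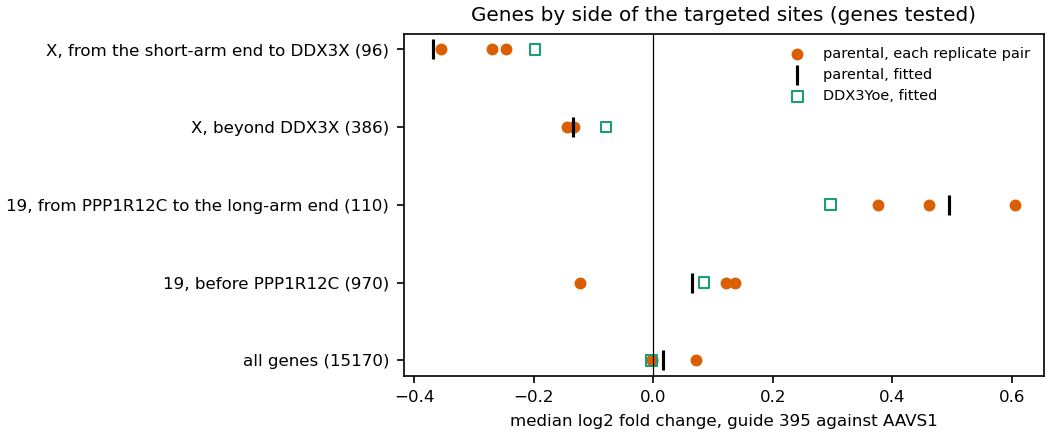
Median log2 fold change of guide 395 against AAVS1 (x axis) for genes on either side of the targeted sites, with orange points for the 3 parental replicate pairs, a black mark for the fitted parental value and a green square for DDX3Yoe cells. The 110 genes of chromosome 19 from PPP1R12C onward lie at 0.50 and the 96 X genes before DDX3X at -0.37, while all genes lie at 0.02.

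The guide's effect in parental cells was set beside that in DDX3Yoe cells, which carried the same guides and an added DDX3Y. DDX3X had 1379, 1557 and 1439 reads with AAVS1 and 878, 739 and 653 with guide 395 in those cells. The interaction test, DDX3Yoe minus parental, called 0 of 15228 genes in limma (0.0%), with 737 at an unadjusted p under 0.05 and a smallest adjusted p of 0.343. edgeR called 0 and DESeq2 called 10. In this limma fit no gene's change was shown to differ between the lines. Of the 271 genes called in parental cells, 240 had the same sign in DDX3Yoe cells. The 149 called higher had a median of 1.68 in parental and 0.33 in DDX3Yoe cells, and the 122 called lower had -1.50 and -0.31. The genes were chosen for their parental change, so the smaller medians in DDX3Yoe cells follow in part from that choice.

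Among the core, ACTA2 had 1011, 841 and 919 reads with AAVS1 and 632, 397 and 485 with guide 395 in DDX3Yoe cells (-0.89, against -2.43 in parental cells). COL1A1 had 399, 185 and 239 reads against 344, 198 and 173 (-0.19, against -2.43). HLA-E had 1800, 906 and 2011 reads against 2576, 4060 and 2065 (0.91, against 2.48). DGKQ had 157, 160 and 223 reads against 194, 214 and 209 (0.21, against 1.92). MDK had 484, 248 and 299 reads against 607, 731 and 328 (0.67, against 2.37). In DDX3Yoe cells the 2 guides overlapped for COL1A1, DGKQ and MDK, and did not for ACTA2 and HLA-E. Of the core genes 18 of the 19 higher and 15 of the 15 lower had the same sign in both lines, and CBARP (-0.05) was the exception. BMP7 (0.02), SFRP2 (0.01) and TFPI (-0.00) lay near 0 in DDX3Yoe cells, and PTGS2 was at -0.30.

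**Figure D3:**
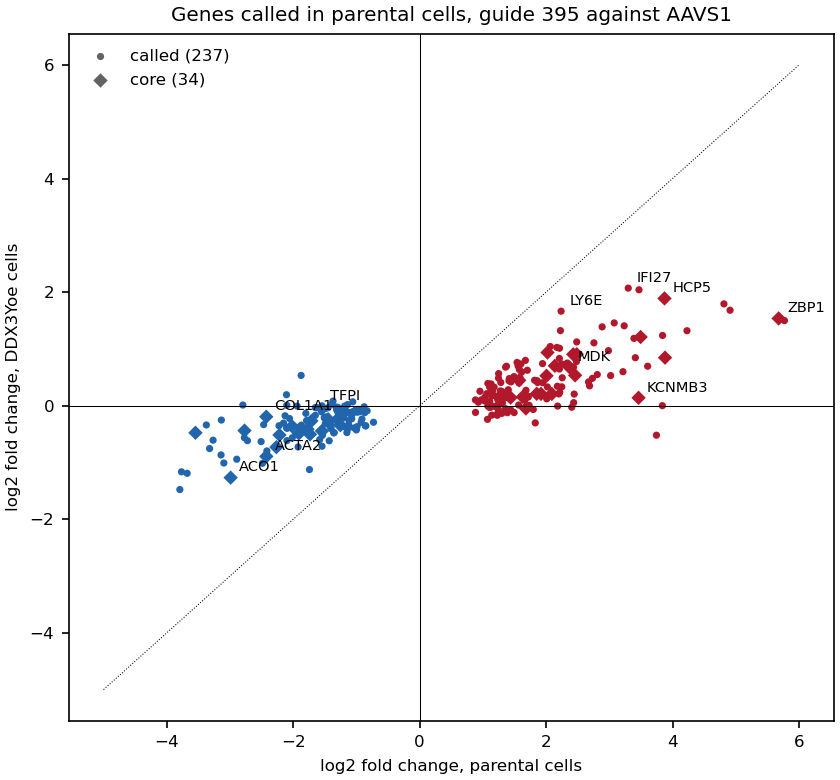
Log2 fold change of guide 395 against AAVS1 in parental cells (x axis) and in DDX3Yoe cells (y axis) for the 271 genes called in parental cells, with red for higher, blue for lower, diamonds for the 34 core genes and a dotted line for equal values. Most points, 240 of 271, lie in the quadrants of equal sign, and the genes were chosen on the x axis.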

How the data were processed

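Libraries were made from total RNA of the KNS-42 cells with a 3' end kit (QuantSeq), per the labels' protocols, so a value does not grow with transcript length. The deposited values are a normalised signal, 58050 Ensembl identifiers by 18 libraries. Their steps show that the authors divided the counts of each library by 1 number. Per the submitters' processing notes the tools were STAR 2.5.2b, RSEM 1.3.0, featureCounts 1.5.1 and limma, and the build was GRCh38. The sources used here do not give an annotation version or a strand setting. Dividing by each library's step gave whole reads for 100% of values, within a tolerance of 0.01, and these totalled 5.67 M to 13.2 M over the 18 libraries. Symbols and positions came from GENCODE 29, which held 57446 identifiers.

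The 15228 genes that reached 10 or more in 3 or more of the 18 libraries were tested. Another 13337 had reads but were not tested, and 29485 were at 0 in every library. log2(value + 1) was fitted with limma 3.58.1 in R 4.3.3, with an intensity trend and 6 group means over all 18 libraries (12 residual degrees of freedom), and p-values were adjusted by Benjamini and Hochberg over all genes tested, with a threshold of 0.05. Errors after ± are standard errors beside a fold change. edgeR 4.0.16 (quasi-likelihood) and DESeq2 1.42.0 on recovered reads were alternatives. The main limma fit, the replicate block shared by all libraries, edgeR and DESeq2 were run on simulated counts without a replicate effect. The other alternatives were not run on simulated counts. DDX3Xoe was not compared, because DDX3X values of its 2 libraries numbered 1 run against their labels, but these libraries enter the shared estimate of the spread. Chi-square per degree of freedom between replicates of the same guide was 30.2 to 98.7, so no parental library was a copy of another with that guide. Libraries of different guides were not compared in this way.

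Deviations of same-numbered parental libraries from their group means correlated at 0.57, 0.201 and 0.28, and replicate numbers were taken to pair them. Unlike-numbered libraries correlated at -0.388 to 0.152. AAVS1 replicate 2 with guide 395 replicate 3 (0.152) came close to the same-numbered value for 2, so the pairing is clear for number 1 alone. What a number marks is not given by the labels. Counts with the block are given for all genes, for each group of lists and for most lists whose count it moves by over 1.5 times, and single genes it adds are given as examples.

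The comparison, the 84 gene lists and the tests were chosen with earlier results of these data known. Lists are described by counts and medians, with no set test. Named genes were DDX3X, the 20 largest called changes in each direction above the 40th percentile of expression, up to 5 called members of each list (with fewer than 3 called, up to 3 in all, the uncalled as values), and up to 15 core genes per direction. Not every gene under this rule is printed. Other genes are marked as chosen after their values were seen. Individual values of 2 called genes are not reported here, though the counts include them.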

Additional observations from a re-analysis of the deposited data

How the results depend on the processing

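The count of 271 called genes (149 higher, 122 lower) was 159 (53 lower) with no filter on low values, 83 (66 and 17) in a fit of the 6 parental libraries alone, and 927 (445 and 482) in DESeq2. Quantile normalisation gave 184 lower. With the replicate block shared by all libraries it was 677 (336 and 341), and with a replicate block within each cell line 737 (384 and 353). Leaving out 1 parental library gave 60 to 366 calls, 26 to 199 higher and 22 to 167 lower. The other alternatives stayed within 1.5 times of 271. Of the 271 genes, 58 to 220 were called again without 1 library, 61 in the fit of 6 libraries alone, 133 with no filter, 233 in edgeR and 268 in DESeq2. The cause was not tested. DDX3X stayed between -0.98 and -1.10 on the log2 scale over the alternatives that use all parental libraries. It passed the threshold in DESeq2 (-1.05) and without both DDX3Xoe libraries numbered 1 (-1.03, limma adjusted p 0.0123), and in no other. Of the 34 core genes, 25 passed in every alternative, 8 missed in the fit of 6 libraries alone, and ZBP1 missed with a pseudocount of 0.1. The interaction with DDX3Yoe called 3 genes with no filter, 1 with no intensity trend and 10 in DESeq2. NQO1, uncalled at -0.08, ranged from -0.26 to 0.18 without 1 library and turned positive without guide 395 replicate 2 (0.00366) or AAVS1 replicate 1 (0.183). The shared block ended no call among the 271, and with the block within each line 266 were called again. With 3 libraries a group and 8.01 M to 13.2 M reads, genes of few reads rest on the pseudocount.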
